A study of Mus musculus with 8 samples.

Results

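The genes described here are 44 genes of the motile cilium, out of 38924 genes counted in ribosome-bound RNA of embryonic mouse neurons. They were listed by name. The list was made because Spef2, Ak7, Efcab2 and Wdr78 had already been seen to be higher in medial-type than in lateral-type dopamine libraries, and the question was whether the other 40 members followed. The medial against lateral values of those 4 genes chose the list, so they are given as a description with no test. Of the 40 other members, 37 had at least 1 count in some library and 34 passed the expression filter. Dnah12, Dnaaf1 and Cfap46 had 0 counts in all 8 libraries, and Dnah3, Cfap43 and Spag17, whose counts lay in only 1 or 2 libraries, did not pass the filter. Members named beyond those that the naming rule takes were chosen after their values were seen.

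The RNA came from bacTRAP mice, in which a tagged ribosomal protein is made from the control region of a chosen gene so that the RNA on its ribosomes can be captured from mixed tissue. The series describes a line driven by Slc6a3, the dopamine transporter gene, and a line driven by Slc6a4, the serotonin transporter gene. The descriptions of all 8 libraries name the Slc6a3 line, those of the serotonin libraries included, so groups follow the titles. There were 2 datL, 2 datM, 1 Lateral and 1 Medial dopamine libraries and 2 serotonin libraries. No other allele, drug or treatment is given for any of them. The age is worded alike for all 8: dissection took place on embryonic day 15, and tissue called day 18 had also been taken on day 15 and was then held 3 days in vitro. The labels do not spell out L and M. datM and Medial are called medial-type here (n = 3), and datL and Lateral lateral-type (n = 3). Whether replicates came from separate animals is not stated, so a p-value here reflects the spread of these libraries alone, and that spread may be technical.

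A motile cilium is a beating cell extension built on a ring of doublet microtubules around a central pair. Dynein arms, assembled in the cytoplasm from heavy, intermediate and light chains, slide the doublets, while radial spokes, the central pair and the nexin-dynein regulatory complex control the bending. In the brain such cilia are carried by ependymal cells and choroid plexus, whereas neurons usually bear a single primary cilium, which lacks most of these parts. Foxj1 and the RFX factors switch on the genes of the motile axoneme, the RFX factors through a promoter element called the X-box.

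Total counts were 22417739 to 33216710 per library. Per the file headers, datL and datM were sequenced in an October run, where 11708 to 12509 genes were detected, and serotonin, Lateral and Medial in lane 8 of another run, where 13703 to 15656 were. Lateral and Medial are also marked E18 in their headers. Replicates of the October run often disagreed over whether a gene was present: 5.64% of the 13806 genes tested had 0 counts in 1 datM library and above 10 CPM (a gene's count scaled to its library's total) in the other, against 0.0217% for the serotonin pair. Th, the first enzyme of dopamine synthesis, stood at 93.2, 348 and 852 CPM in datL 1, datL 2 and Lateral and at 905, 254 and 687 CPM in datM 1, datM 2 and Medial. In serotonin 1 and 2 it stood at 10.6 and 20.9 CPM. Slc6a3 itself stood at 129, 229 and 739.5 CPM in the lateral-type libraries and at 31.9, 176 and 129.5 CPM in the medial-type ones, which overlapped, and at 0.679 and 0.172 CPM in serotonin. Slc6a4 was at 1196 and 1075 CPM in serotonin and at 0 to 5.27 CPM in the 6 dopamine libraries, and Tph2, the enzyme that starts serotonin synthesis, at 2909 and 2189 CPM and at 0 to 41.5 CPM. Values of a group are given in the order datL 1, datL 2, Lateral for lateral-type, datM 1, datM 2, Medial for medial-type, and 1, 2 for serotonin, in CPM of the library total.

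Most of the 40 other members stood higher in medial-type than in lateral-type libraries, although none passed the adjusted test. Their CPM summed to 264.7, 181.6 and 191.2 in lateral-type, 457.8, 777.8 and 1154 in medial-type and 264.2 and 268.1 in serotonin libraries. All 3 medial-type sums lay above all 5 others, and the mean sum of the medial-type libraries was 3.75 times that of the lateral-type ones. Of the 34 members tested, 27 had a positive log2 fold change and 7 a negative one, with a median of 2.47, where 48.6% of all 13806 genes tested were positive and their median was -0.03. An unadjusted p under 0.05 in edgeR's quasi-likelihood test was reached upward by 6 members, Foxj1, Dnah6, Dnah11, Cfap52, Cfap65 and Iqcg, and downward by 0; over all genes the shares were 1.57% and 4.45%. At an adjusted p under 0.05 the count was 0 of 34, against 0.00724% of all genes, and the smallest adjusted p of a member was 0.77. DESeq2 passed 4 of them after adjustment, Foxj1, Dnah6, Cfap52 and Cfap65, among 232 genes in all, while limma-voom passed 0. All 3 medial-type libraries lay above all 3 lateral-type libraries for 4 of the 40, Foxj1, Dnah6, Dnah11 and Iqcg, and below them for 0; the shares of all genes tested were 3.87% and 3.57%. Since a member could enter the test through the group in which it was high, these counts describe the list and are no support for it.

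The count of 6 depended on single libraries. It was 1 without datL 1, 2 without datL 2, 3 without datM 1, 3 without Medial, 2 without serotonin 1, 2 without serotonin 2 and 10 without Lateral, and positive fold changes numbered 19 of those tested without Medial. The ratio of summed CPM was 2.91 without Medial and 4.55 without datM 1. In bulk RNA of this kind, fewer cells of a type and less RNA per cell cannot be told apart.

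**Figure D1:**
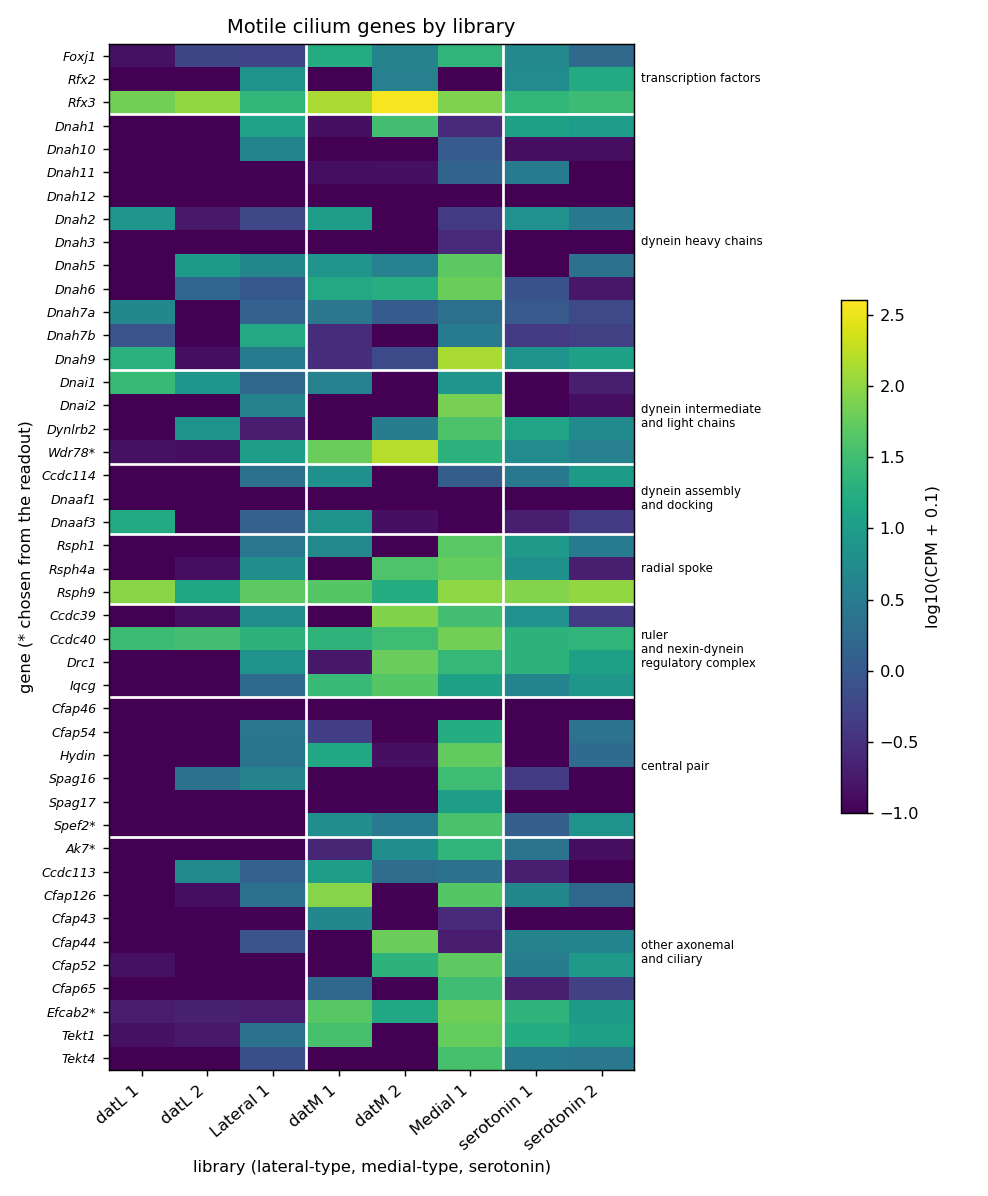
Heat map of the 44 members (rows, grouped by role; asterisks mark the 4 chosen from the readout) in the 8 libraries (columns), coloured by log10 of CPM plus a pseudocount of 0.1, where the darkest colour is 0 counts or close to it. Among the 40 not marked, 28, 24 and 9 were at 0 counts in datL 1, datL 2 and Lateral, and 15, 19 and 5 in datM 1, datM 2 and Medial.

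Within each run more members were detected in medial-type than in lateral-type libraries. At least 1 CPM was reached by 8, 9 and 25 of the 40 members in lateral-type, by 19, 16 and 29 in medial-type and by 21 and 21 in serotonin libraries, as the heat map of members by library shows. The share of all tested genes at that level was 62.6%, 69.6% and 88.3% in lateral-type, 65.9%, 67.3% and 78.6% in medial-type and 86.8% and 85.6% in serotonin libraries. Lateral detected more of all tested genes than Medial did, but fewer of these 40. Medial was the library with the highest CPM for 16 of the 34 members tested, or 47.1%, against 18.2% of all genes tested.

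Within each run the comparison could be made without crossing runs. In the October run both datM libraries lay above both datL libraries for 8 of the 40 members, Foxj1, Rfx3, Dnah1, Dnah6, Dnah11, Hydin, Drc1 and Iqcg, and below them for 1, Dnai1. Over all genes tested the shares were 14.2% and 12.1%. Some of these rest on 1 or 2 counts against 0 in datL: 1 for Dnah1 in datM 1, 1 for Hydin in datM 2, 2 for Drc1 in datM 1, and 1 and 1 for Dnah11. By number, datM 1 was above datL 1 for 17 of the 34 members tested and below for 8. datM 2 was above datL 2 for 17 of 34 and below for 9, and the others were equal. Of all 13806 genes tested, 45.3% and 45.5% were above, and 5706 and 6063 were below. The members' shares above were thus near those of all genes. In lane 8 Medial was above Lateral for 29 of 40, or 26 of the 34 tested, and below for 8, against 48.5% of all genes tested above. A ratio above 2 was found for 24, of which 23 were tested, against 22.3%. A ratio of Lateral to Medial above 2 was found for 6, against 28.4%. These last 2 libraries have no replicate, so their differences carry no test. When datL and datM were fitted alone, 14 of the 40 members passed the filter among 10713 genes, 7 of them with a positive log2 fold change and a median of -0.05, against -0.03 over all genes, and edgeR gave an unadjusted p under 0.05 to 1, Iqcg. The fit over all libraries tested 34 members, so its median is of a different set of genes and the medians cannot be compared. Summed over the 40 members, CPM was 264.7 and 181.6 in the datL and 457.8 and 777.8 in the datM libraries.

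The transcription factors differed from each other. Foxj1, the forkhead factor that drives motile cilium formation (ENSMUSG00000034227.7, chromosome 11, 116330704 to 116335399, minus strand, mm10), stood at 0.0441, 0.458 and 0.421 CPM in lateral-type, 16.7, 3.99 and 22.6 CPM in medial-type and 4.85 and 1.65 CPM in serotonin libraries. Every medial-type library was above every lateral-type one, and 1 serotonin library lay within the medial-type range. The means were 14.4 ± 9.5 CPM (SD, n = 3) in medial-type and 0.308 ± 0.229 CPM (SD, n = 3) in lateral-type, a ratio of 46.9, and edgeR's log2 fold change was 5.42 (SE 2.34, unadjusted p = 0.0414, adjusted p = 0.77).

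Rfx3, an RFX factor that also serves cells with primary cilia (ENSMUSG00000040929.10, chromosome 19, 27761721 to 28011166, minus strand), was counted in every library, at 68, 103 and 24 CPM in lateral-type, 138, 354 and 79.6 CPM in medial-type and 24.3 and 28.9 CPM in serotonin libraries. Medial overlapped the lateral-type range, while all 3 medial-type libraries lay above both serotonin libraries. The medial over lateral log2 fold change was 1.46 (SE 0.74, unadjusted p = 0.0746, adjusted p = 0.78) and that of medial-type over serotonin 2.96 (SE 0.92, unadjusted p = 0.0084, adjusted p = 0.58), both by edgeR. Without Rfx3 the remaining 39 members still summed to 320.2, 424.0 and 1075 CPM in medial-type and to 196.7, 78.8 and 167.2 CPM in lateral-type libraries.

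Rfx2, another RFX factor of ciliated cells (ENSMUSG00000024206.8, chromosome 17, 56775897 to 56831008, minus strand), did not follow. It stood at 0, 0 and 6.86 CPM in lateral-type, 0, 3.58 and 0 CPM in medial-type and 5.33 and 15.6 CPM in serotonin libraries, and was counted in only 1 library of each dopamine type. The medial-type libraries all lay below serotonin. Its log2 fold change by edgeR was -0.86 (SE 3.12, unadjusted p = 0.787, adjusted p = 1.00), and it turned to 7.97 without Lateral and to 5.76 with the run as a term.

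RFX factors read the X-box, a pair of short elements in opposite orientation, and the promoters of the members were searched for it because both the factors and the genes were measured. RefSeq promoters (GRCm38.p6, 250 bases before to 50 after the start) were found for 35 of the 44 members; Foxj1, Dnah3, Dnaaf1, Rsph1, Rsph4a, Cfap54, Cfap65, Wdr78 and Efcab2 had no entry. The X-box, searched as GTTGCC, any 3 bases, G, any 1 base and AAC on either strand, was present in 4 of 35 (11.4%) and in 0.503% of 27025 genes. The matching windows are shown 5′ to 3′ on the gene's strand, with the matched bases, which on the opposite strand read as the reverse complement, in capitals. They lie at chr1:69826859-69826888, plus strand, for Spag16, chr8:110266948-110266977, plus strand, for Hydin, chr16:44394764-44394793, plus strand, for Cfap44, and chr17:25471582-25471611, plus strand, for Tekt4.
Spag16: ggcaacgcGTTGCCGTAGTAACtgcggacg
Hydin: actctgcgGTTGCTGTGGCAACagatggta
Cfap44: ggagggacGTTGCTATGGCAACcgcagtaa
Tekt4: tatacaatGTTCCTTAGGCAACcaggaacc
Each of these 4 genes was at 0 CPM in datL 1, and their highest library was Medial for 3 and datM 2 for Cfap44. Among the 40 members not chosen from the readout, 28 were at 0 counts in datL 1, and Medial was the highest library for 16 of the 34 tested. Neither trait was thus particular to members with a match.

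Its first element alone, GTTGCC, which the longer motif contains, was present on either strand in 17 of 35 members (48.6%) and in 14.1% of 27025 genes. Among further motile cilium genes it was present in 26 of 53 (49.1%), and among genes of intraflagellar transport and the primary cilium in 18 of 41 (43.9%). The element was thus nearly as frequent in the latter group, whose median log2 fold change between the dopamine types was 0.12. Windows are shown for 1 member chosen from the readout, for the regulatory complex subunit whose groups did not overlap, and for one of the members with the highest level per kilobase. They lie at chr15:9748843-9748872, minus strand, for Spef2, chr16:33056188-33056217, minus strand, for Iqcg, and chr11:72361880-72361909, minus strand, for Tekt1.
Spef2: ccttagcaactgGTTGCCctgggcgacggg
Iqcg: cttgcgcgacgcGTTGCCatagctaccgat
Tekt1: tgcgtccgtccgGTTGCCatagagaccgca
A looser X-box starting with GTNNCC in place of GTTGCC, which includes all 4 matches above, was present in 5 of 35 (14.3%) and in 2.49% of genes. This looser form was present in 15 of 53 further motile cilium genes (28.3%). Among genes of intraflagellar transport and the primary cilium it was present in 9 of 41. Both shares were larger than that of the members, so the looser form was not particular to them. The X-box as first searched was present in 4 of 53 (7.55%) and 3 of 41 (7.32%) of these lists, against 11.4% of members. A stricter X-box with ATG as the 3 middle bases was present in 0 of 35 and in 0.0851% of genes. The forkhead motif TGTTTAC was present on either strand in 2 of 35 (5.71%), Ak7 and Cfap43, and in 4.05% of genes. It does not overlap the X-box forms. The 5 motifs were settled on after matches had been seen, and a match describes letters, not binding.

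Dynein heavy chains, the motors of the arms, numbered 11, of which 10 had counts and 9 were tested. Their CPM summed to 32.4, 10.5 and 40.5 in lateral-type, 35.2, 56.4 and 256.3 in medial-type and 29.8 and 26.7 in serotonin libraries, so datM 1 lay within the lateral-type range and Medial far above all others. Dnah6, a heavy chain of the inner arms (ENSMUSG00000052861.7, chromosome 6, 73017606 to 73221651, minus strand), stood at 0, 1.41 and 0.873 CPM in lateral-type, 14.9, 17.3 and 60.8 CPM in medial-type and 0.713 and 0.0686 CPM in serotonin libraries. The medial-type libraries were all above the 5 others. Its mean was 31 ± 25.8 CPM (SD, n = 3) in medial-type and 0.761 ± 0.712 CPM (SD, n = 3) in lateral-type libraries, a ratio of 40.7, with an edgeR log2 fold change of 5.18 (SE 2.29, unadjusted p = 0.045, adjusted p = 0.77). Over serotonin the edgeR value was 6.31 (SE 2.90, unadjusted p = 0.0529, adjusted p = 0.59).

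Dnah11, an outer arm chain (ENSMUSG00000018581.9, chromosome 12, 117877982 to 118199043, minus strand), had 0, 0 and 0 CPM in lateral-type, 0.0367, 0.0416 and 1.29 CPM in medial-type and 2.99 and 0 CPM in serotonin libraries. Its medial-type values rest on 1, 1 and 29 counts. The medial-type mean was at least 12.5-fold higher than the floor of 3 counts set over the lateral-type group, and edgeR gave unadjusted p = 0.049 and adjusted p = 0.77 for this contrast. Exons of Cdca7l cover 4.44% of its exons, and the counting ignored strand.

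The outer arm chains Dnah5 and Dnah9 were carried by Medial. Dnah5 stood at 0, 9 and 4.49 CPM in lateral-type and 7.34, 3.79 and 49.4 CPM in medial-type libraries, and Dnah9 at 19.8, 0.0382 and 2.86 CPM and 0.183, 0.541 and 138 CPM. For both, the datM libraries overlapped the datL libraries. Dnah1, an inner arm chain, stood at 0, 0 and 11.9 CPM in lateral-type and 0.0367, 33.8 and 0.178 CPM in medial-type libraries. Among the dopamine libraries it was thus high in datM 2 and Lateral alone. Dnah2, Dnah7a, Dnah7b and Dnah10 stayed at or under 14.6 CPM in every library, with log2 fold changes from -2.44 to 0.30. Dnah7a and Dnah7b are near-identical copies, so the split of their reads is uncertain. Dnah3 had 4 counts in all, in Medial.

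Intermediate and light chains attach the motors to the doublets. Dnai1, of the outer arm, stood at 26.3, 7.71 and 1.53 CPM in lateral-type and 3.89, 0 and 7.36 CPM in medial-type libraries; both datL libraries were above both datM libraries, while Medial was above Lateral. Its partner Dnai2 was at 0 in datL 1, datL 2, datM 1 and datM 2, at 3.97 CPM in Lateral and at 72.7 CPM in Medial. Dynlrb2, a light chain, stood at 0, 6.83 and 0.0903 CPM and 0, 3.2 and 38.9 CPM, and at 12.5 and 4.94 CPM in serotonin. All 3 had their highest medial-type value in Medial, and none was above 3.89 CPM in a datM library. Wdr78, an intermediate chain and one of the 4 genes chosen from the readout, is described with those.

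The assembly and docking factors were split, with edgeR log2 fold changes of -1.35 for Dnaaf3 and 1.96 for Ccdc114. Dnaaf3, which helps dyneins fold in the cytoplasm, stood at 15.8, 0 and 1.23 CPM in lateral-type and 6.83, 0.0416 and 0 CPM in medial-type libraries, and the docking protein Ccdc114 at 0, 0 and 2.02 CPM and 6.35, 0 and 1.07 CPM. The groups overlapped for both, and Medial was below Lateral for both. Exons of Tnni3 on the same strand cover part of Dnaaf3, 16.5% of its exons overlapping another gene.

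Among the 3 radial spoke genes 1 was even across groups. Rsph9, a spoke head protein, had a mean of 39.3 CPM per kilobase of exon over all 8 libraries, the highest of the 44, followed by Dynlrb2 at 16.7, Cfap126 at 9.84 and Tekt1 at 9.36 CPM per kilobase. Rsph9 itself stood at 92.5, 13 and 50.2 CPM in lateral-type, 45, 16.7 and 98.2 CPM in medial-type and 84.9 and 104 CPM in serotonin libraries, with overlap of all groups. Its edgeR log2 fold change was -0.12 (SE 0.85, unadjusted p = 0.888, adjusted p = 1.00). The other spoke head genes were less even: Rsph4a stood at 0, 0.0382 and 6.14 CPM in lateral-type and 0, 40.9 and 56.6 CPM in medial-type libraries. Rsph1 stood at 0, 0 and 2.5 CPM and 4.81, 0 and 48.4 CPM. For both, 1 datM library had 0 counts and Medial was the highest library.

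The ruler proteins and the nexin-dynein regulatory complex set the repeat along the doublet and link neighbouring doublets. Iqcg, a subunit of that complex (ENSMUSG00000035578.9, chromosome 16, 33015385 to 33056218, minus strand), stood at 0, 0 and 1.72 CPM in lateral-type, 26.6, 44.2 and 11.5 CPM in medial-type and 4.07 and 8.06 CPM in serotonin libraries. The medial-type libraries were all above the 5 others. The means were 27.4 ± 16.4 CPM (SD, n = 3) and 0.572 ± 0.991 CPM (SD, n = 3), a ratio of 48.0 of medial-type to lateral-type, and the edgeR log2 fold change was 5.63 (SE 2.52, unadjusted p = 0.0478, adjusted p = 0.77). It was also the member with unadjusted p under 0.05 when only datL and datM were fitted. Exons of Lrch3, on the opposite strand, overlap 7.6% of its exon length.

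Drc1, the scaffold of the complex, was at 0, 0 and 7.04 CPM in lateral-type, 0.0734, 59.2 and 25.2 CPM in medial-type and 21.3 and 10.9 CPM in serotonin libraries; it was highest in datM 2 and Medial, and both serotonin libraries lay between Lateral and Medial. The ruler pair behaved unlike each other. Ccdc39 was at 0, 0.0382 and 5.96 CPM in lateral-type and 0, 81.5 and 33.3 CPM in medial-type libraries, whereas its partner Ccdc40 was present throughout, at 29.6, 32.9 and 21.3 CPM and 21.9, 29.8 and 69.1 CPM, and at 21.4 and 22.6 CPM in serotonin. Ccdc40 was one of 3 of the 40 members with at least 1 CPM in all 8 libraries.

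Central pair genes stood at or under 4.03 CPM in every lateral-type library. Hydin, a large protein of a central pair projection, stood at 0, 0 and 2.44 CPM in lateral-type and 14.1, 0.0416 and 54.9 CPM in medial-type libraries. Cfap54 stood at 0, 0 and 2.53 CPM and 0.367, 0 and 17 CPM, and Spag16 at 0, 2.14 and 4.03 CPM and 0, 0 and 30.3 CPM. Spag17 was counted only in Medial, at 10.2 CPM, and Cfap46 in no library. Without Spef2 the 5 central pair genes summed to 0, 2.14 and 9.0 CPM in lateral-type and to 14.5, 0.0416 and 112.4 CPM in medial-type libraries, so datM 2 was below 2 of the lateral-type libraries.

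Among other axonemal genes, all 7 tested members not chosen from the readout had positive fold changes, with a median log2 of 6.06, and none had both datM libraries above both datL libraries. Cfap52, a protein inside the doublet microtubule (ENSMUSG00000020904.5, chromosome 11, 67924806 to 67965651, minus strand), stood at 0.0441, 0 and 0 CPM in lateral-type, 0, 21.4 and 51 CPM in medial-type and 3.16 and 8.51 CPM in serotonin libraries. The lateral-type group held 1 count in all, datM 1 held 0, and both serotonin libraries lay above the lateral-type ones. By edgeR the medial over lateral comparison had an unadjusted p = 0.012 (adjusted p = 0.77) and the lateral-type over serotonin one an unadjusted p = 0.0269 (adjusted p = 1.00). A fold against 1 count is not given.

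Cfap65 (ENSMUSG00000047021.8, chromosome 1, 74902071 to 74935599, minus strand), known for sperm flagella, was at 0 counts in all 3 lateral-type libraries, at 1.5, 0 and 31.4 CPM in medial-type and 0.102 and 0.412 CPM in serotonin libraries. It was high in Medial, low in datM 1 and not counted in datM 2. The medial-type mean was at least 299.9-fold higher than the floor of 3 counts over the lateral-type group, and edgeR gave unadjusted p = 0.0247 and adjusted p = 0.77. Cfap126 and Tekt1, a tektin of the doublet wall, shared a pattern in which datM 1 and Medial were high and datM 2 had 0 counts: Cfap126 stood at 87, 0 and 44.7 CPM in medial-type and 0, 0.0382 and 1.96 CPM in lateral-type libraries, and Tekt1 at 35.3, 0 and 56.3 CPM and 0.0441, 0.0763 and 2.11 CPM. Cfap44 was the opposite, at 0, 61.1 and 0.0892 CPM in medial-type libraries, high in datM 2 alone. Tekt4 was at 35.5 CPM in Medial, 0 in both datM libraries and 0.662 CPM in Lateral, and Ccdc113 and Cfap43 stayed at or under 9.87 CPM.

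In 6 of the 40 members, Rsph4a, Ccdc39, Cfap44, Cfap52, Cfap126 and Tekt1, 1 datM library had 0 counts and the other more than 10 CPM, against 5.64% of all genes tested; in datL libraries this was so of 1 member, Dnaaf3, against 5.9%. The 2 datM libraries thus often held different members: datM 2 was the high one for Rsph4a, Ccdc39, Cfap44 and Cfap52, and datM 1 for Cfap126 and Tekt1. At least 1 CPM was reached in both datM libraries by 8 of the 40 members, and in all 3 medial-type libraries by 8. In all 3 lateral-type libraries 4 members reached it.

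**Figure D2:**
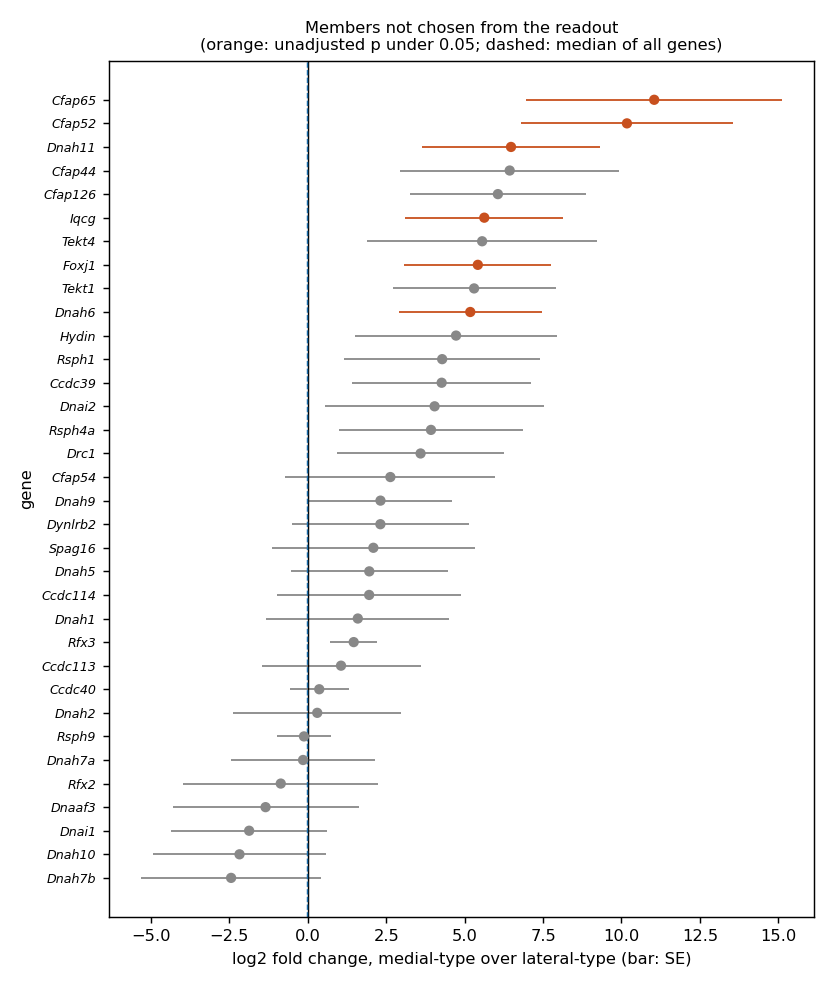
Log2 fold change of medial-type over lateral-type libraries by edgeR (points) with its SE (bars) for the 34 members tested that were not chosen from the readout, with orange for an unadjusted p under 0.05. Of these, 27 lie above 0 and 7 below, and the dashed line at -0.03 is the median of all genes tested; the points of Cfap52, Cfap65 and Dnah11, whose lateral-type group held 0 or 1 counts, depend on the prior count and give no size.

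The 4 genes that prompted the list are described without a test. Spef2, a central pair protein (ENSMUSG00000072663.5, chromosome 15, 9578193 to 9748868, minus strand), had 0 counts in all 3 lateral-type libraries and stood at 5.72, 2.83 and 36.2 CPM in medial-type and 1.12 and 7.03 CPM in serotonin libraries. Ak7, an adenylate kinase of motile cilia (ENSMUSG00000041323.5, chromosome 12, 105705982 to 105782447, plus strand), also had 0 counts in lateral-type libraries, and stood at 0.147, 6.12 and 23.3 CPM in medial-type and 2.34 and 0.0343 CPM in serotonin libraries. The medial-type means were at least 409-fold higher for Spef2 and at least 269.6-fold higher for Ak7 than the floor of 3 counts over the lateral-type group. The value of Ak7 in datM 1 rests on 4 counts.

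Efcab2, a subunit of the nexin-dynein regulatory complex (ENSMUSG00000026495.7, chromosome 1, 178405881 to 178483247, plus strand), was the most even of the 4 across medial-type libraries, at 0.0881, 0.114 and 0.0903 CPM in lateral-type, 46.8, 14.4 and 65.6 CPM in medial-type and 21.9 and 8.92 CPM in serotonin libraries, and its lateral-type values rest on 2, 3 and 3 counts. Wdr78, a dynein intermediate chain (ENSMUSG00000035126.13, chromosome 4, 103038065 to 103114555, minus strand), stood at 0.0441, 0.0382 and 10.0 CPM, 59.5, 157 and 20.4 CPM and 5.43 and 3.6 CPM, so Medial was 2.04 times Lateral, while each datL library held 1 count. The ratio of medial-type to lateral-type means was 433 for Efcab2 and 23.5 for Wdr78. Both serotonin libraries lay above all lateral-type libraries for Spef2, Ak7 and Efcab2, and within the lateral-type range for Wdr78. Exons of Mier1 overlap 1.78% of Wdr78. The 4 genes summed to 0.132, 0.153 and 10.1 CPM in lateral-type, 112.2, 180.7 and 145.5 CPM in medial-type and 30.8 and 19.6 CPM in serotonin libraries.

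**Figure D3:**
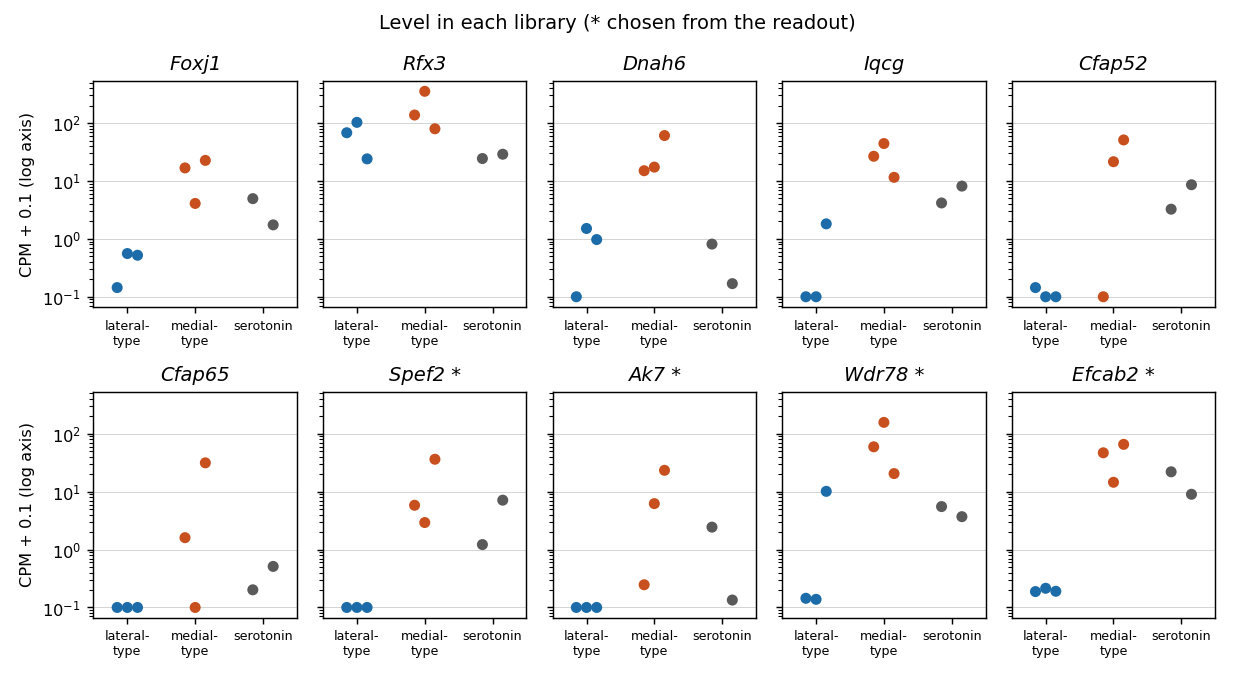
CPM plus 0.1 on a log axis in each library for 10 members, with 3 lateral-type, 3 medial-type and 2 serotonin libraries as points; asterisks mark the 4 genes chosen from the readout. For Foxj1, Dnah6 and Iqcg all 3 medial-type points lie above all lateral-type points, and for Cfap52 and Cfap65 1 medial-type point lies at the floor of the plot, which is 0 counts.

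Against serotonin, the medial-type libraries stood higher for most members as well, and the lateral-type libraries lower for 22 of 34. These comparisons share libraries with the first and with each other. Of the 34 members tested, 29 had a positive medial-type over serotonin log2 fold change, with a median of 2.28, where 53.5% of all genes were positive. By edgeR, 1 member, Rfx3, had an unadjusted p under 0.05 upward and 0 downward, against 2.84% and 5.65% of all genes. The adjusted count by edgeR was 0, against 0.0%. DESeq2 passed 2 members after adjustment, Rfx3 and Dnah6, among 202 genes in all. No member passed with limma-voom, where 1 gene in all did. The medial-type libraries all lay above both serotonin libraries for 6 of the 40, Rfx3, Dnah5, Dnah6, Dnah7a, Ccdc113 and Iqcg, and below for 1, Rfx2; the shares of all genes tested were 10.9% and 21.6%.

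Lateral-type over serotonin was positive for 12 and negative for 22 of the 34 members, with a median of -0.62, where 54.3% of all genes were positive. Here edgeR gave an unadjusted p under 0.05 for 0 members upward and 2 downward, Cfap52 and Dnah11, against 1.75% and 1.62%. After adjustment 0 members passed by edgeR, against 0.0%, and 0 by DESeq2 and limma-voom, which passed 55 and 2 genes in all. Dnah11 was carried by 1 serotonin library. All lateral-type libraries lay below both serotonin libraries for 10 of the 40 and above for 1, Dnai1, against 17.8% and 7.55% of all genes. For 3 of the 4 genes chosen from the readout, Spef2, Ak7 and Efcab2, the lateral-type libraries were below serotonin too, but those libraries had chosen them.

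Within lane 8 alone, Medial and Lateral could be set against the 2 serotonin libraries of the same run. The E18 mark and the neuron type cannot be told apart there, and each dopamine type is 1 library, so only directions are given. The fitted log2 fold change over serotonin was positive for 27 of 35 members in Medial and for 15 in Lateral. The members' medians were 2.93 and -0.17, against -0.25 and -0.02 over all 14746 genes of that fit. The share of all genes that was positive there was not counted, so the counts of 27 and 15 cannot be judged against a background.

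Other genes of the pathway were counted from lists that had been drawn up with earlier results known. Of 67 further motile cilium genes, 60 had counts and 54 were tested. Medial over lateral fold changes were positive for 39 and negative for 14, with a median log2 of 2.02, where 48.6% of all genes tested were positive. By edgeR, 8 reached an unadjusted p under 0.05 upward and 1 downward, against 1.57% and 4.45% of all genes tested. The smallest adjusted p of the list was 0.77. The list summed to 323.7, 321.9 and 241.4 CPM in lateral-type, 1102, 858.5 and 1143 CPM in medial-type and 275.0 and 240.1 CPM in serotonin libraries. Both datM libraries and Medial lay above all others, with Medial less apart than among the 40 members. Stk36, a kinase needed for the central pair, stood at 3.08, 0.267 and 3.61 CPM in lateral-type, 61.5, 43.5 and 43 CPM in medial-type and 5.16 and 8.71 CPM in serotonin libraries. It had the smallest p of this list, with an edgeR log2 fold change of 4.36 (SE 1.45, unadjusted p = 0.0122, adjusted p = 0.77). Kif27, a kinesin that acts with Stk36, stood at 0, 0.0382 and 0.181 CPM and 19.4, 18 and 3.48 CPM, and Cfap45 at 0 in lateral-type and 0.477, 0 and 1.11 CPM in medial-type libraries. Dnaaf4, an assembly factor, was the 1 with an unadjusted p under 0.05 downward, at 0, 10.9 and 0.723 CPM and 0 in all 3 medial-type libraries.

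Of 14 regulators of the multiciliated fate, 13 had counts and 10 were tested. Of those tested 9 were positive, with a median log2 of 1.46, where 48.6% of all genes tested were positive. By edgeR 1 reached an unadjusted p under 0.05 in each direction, Myb upward and Ccdc78 downward, against 1.57% and 4.45% of all genes tested. The regulators summed to 75.4, 82.0 and 97.3 CPM in lateral-type, 284.7, 201.6 and 268.5 CPM in medial-type and 117.1 and 136.8 CPM in serotonin libraries. These sums are weighted by Rfx4, Tfdp1 and E2f5, so they do not describe the other regulators. Rfx4 alone was at 68.9, 0.0763 and 38.8 CPM in lateral-type and 183, 103 and 55.8 CPM in medial-type libraries. The dopamine types overlapped for Rfx4 and Tfdp1. The factors at the top of the fate were sparse. Gmnc, which starts it, was at 0, 0.496 and 0 CPM in lateral-type and 17.6, 0 and 0 CPM in medial-type libraries, and Deup1, which builds the extra centrioles, was at 0, 0 and 0.813 CPM and 0, 0 and 21.5 CPM. Myb, a factor of the same program, was at 0, 0 and 0 CPM and 0, 3.37 and 6.83 CPM.

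Genes of intraflagellar transport and the primary cilium, which motile and primary cilia share, differed less. All 47 had counts and 46 were tested. Of those tested 28 were positive and 18 negative, with a median log2 of 0.12, where 48.6% of all genes tested were positive. By edgeR 0 reached an unadjusted p under 0.05 upward and 2 downward, Mks1 and Ofd1, against 1.57% and 4.45% of all genes tested. The list summed to 1966, 3049 and 2514 CPM in lateral-type, 3072, 3647 and 3081 CPM in medial-type and 2139 and 2234 CPM in serotonin libraries. The medial-type mean was 1.3 times the lateral-type mean, against 3.75 for the 40 motile members. The difference between these lists was not tested.

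**Figure D4:**
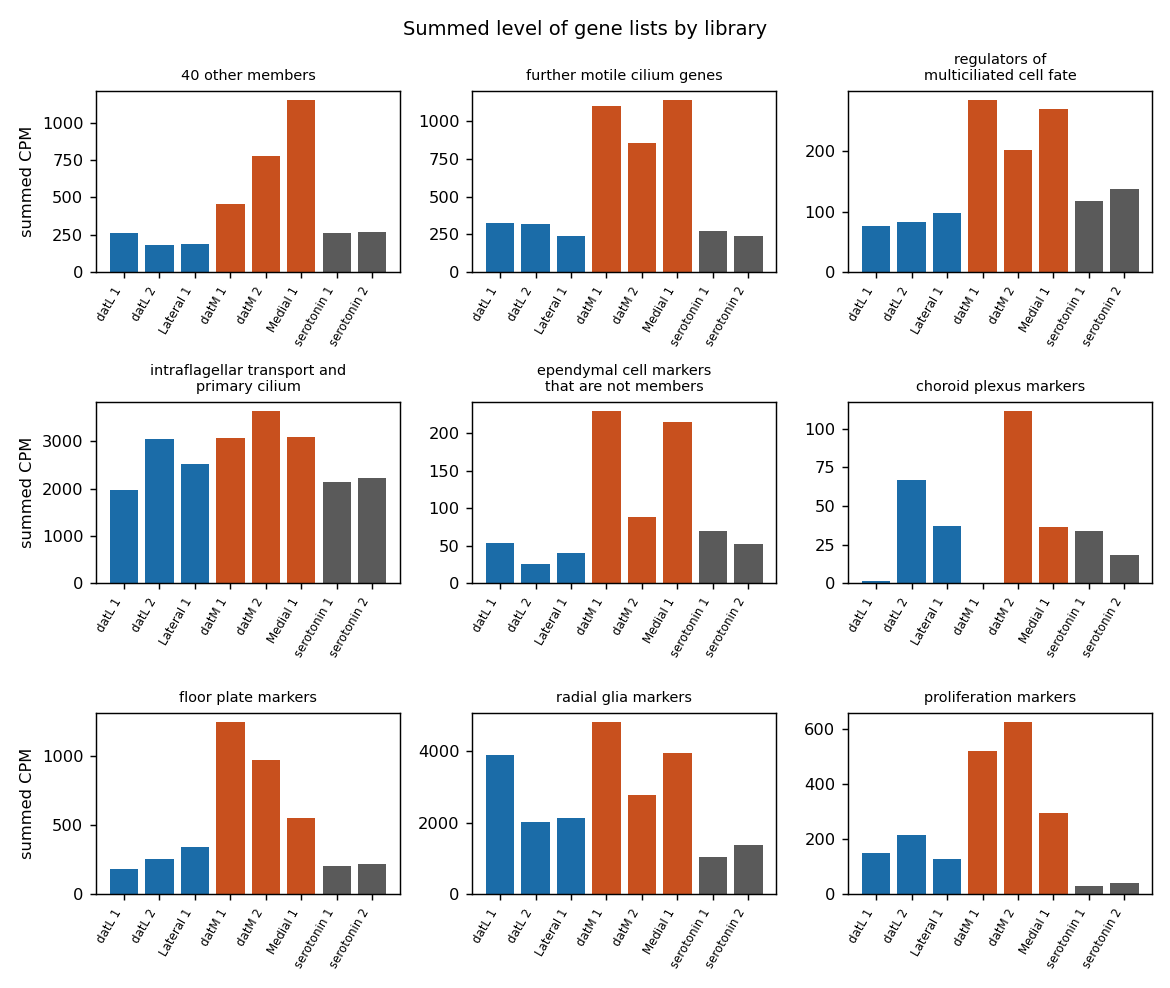
Summed CPM of each gene list in each library (bars; blue lateral-type, orange medial-type, grey serotonin; each panel has its own axis from 0). The 40 members summed to 181.6 to 264.7 CPM in lateral-type and 457.8 to 1154 CPM in medial-type libraries, and the primary cilium list to 1966 to 3049 and 3072 to 3647 CPM.

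Some marker lists drawn up for other cell types also summed higher in medial-type libraries, as the bars of summed list levels show. A listed gene need not be absent from dopamine neurons. Beside the counts of each marker list stand the shares of all genes tested: 48.6% had a positive medial over lateral fold change. An unadjusted p under 0.05 by edgeR was reached upward by 1.57% of all genes and downward by 4.45%. Ependymal cells, which line the ventricles, are marked by 12 listed genes, of which Foxj1 and Dynlrb2 are members. The other 10 held 8 with counts, of which 7 were tested, 6 positive and 1 negative, and summed to 25.7 to 53.4 CPM in lateral-type, 88.2 to 230.1 CPM in medial-type and 51.9 to 69.2 CPM in serotonin libraries. The defining marker Foxj1, itself a member, was higher in every medial-type than in every lateral-type library. Of the other listed markers, Ccdc153 and Rarres2 were at 0 in all 8 libraries. Tmem212 was at 0, 0 and 0.0301 CPM in lateral-type, 0, 13.7 and 34 CPM in medial-type and 0 CPM in both serotonin libraries. Enkur, Fam183b and Zmynd10 of this list are also in the further motile cilium list. The part of ependymal cells in the members' levels was not tested.

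Choroid plexus markers overlapped between the groups in their sums. Of 12 markers 8 had counts and 6 were tested, 4 positive and 2 negative, and their sums were 1.59 to 67.1 CPM in lateral-type, 0.0367 to 111.8 CPM in medial-type and 18.6 to 34.1 CPM in serotonin libraries. Ttr, which defines this tissue, was at 0, 0.648 and 1.69 CPM in lateral-type, 0, 0 and 3.21 CPM in medial-type and 0 and 0.48 CPM in serotonin libraries, and Aqp1, Kcne2, Kcnj13 and Cldn2 were at 0 in all 8.

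Floor plate, the ventral midline from which midbrain dopamine neurons descend, had markers that summed higher in all 3 medial-type libraries than in the 5 others. Of 10 markers all were tested, 9 positive and 1 negative, and 3, Lmx1a, Ntn1 and Ferd3l, had an unadjusted p under 0.05 upward by edgeR. The sums were 185.1 to 339.5 CPM in lateral-type, 549.3 to 1244 CPM in medial-type and 202.1 to 218.5 CPM in serotonin libraries. Shh was at 0, 0 and 1.87 CPM in lateral-type and 2.35, 0 and 31.7 CPM in medial-type libraries, and Corin at 0, 33.4 and 0 CPM and 2.31, 114 and 0 CPM, each at 0 in 1 of the medial-type libraries. Lmx1a was at 28.3, 45.1 and 110 CPM, at 343, 185 and 145 CPM, and at 2.21 and 3.6 CPM in serotonin libraries. Like Th, it was higher in every dopamine library than in serotonin, so it cannot be taken here as a marker of floor plate alone.

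Radial glia markers overlapped between the dopamine types in their sums, and proliferation markers did not. The radial glia sums are weighted by 1 abundant gene, Fabp7. It was at 2973, 1407 and 1082 CPM in lateral-type and 2209, 1341 and 1627 CPM in medial-type libraries, so their overlap does not describe the other markers. Of 12 radial glia markers 9 were positive and 3 negative, 3 with an unadjusted p under 0.05 upward by edgeR, Vim, Nes and Slc1a3, and sums were 2022 to 3903 CPM in lateral-type, 2766 to 4823 CPM in medial-type and 1032 to 1379 CPM in serotonin libraries. Nes, an intermediate filament of neural progenitors, was at 20.1, 26.1 and 30.9 CPM in lateral-type, 268, 315 and 45 CPM in medial-type and 14.7 and 19.2 CPM in serotonin libraries. Of 8 proliferation markers 6 were positive and 2 negative, 1, Top2a, with an unadjusted p under 0.05 upward by edgeR, and sums were 128.4 to 215.2 CPM, 294.0 to 626.2 CPM and 32.0 to 42.6 CPM. Mki67 was at 22.2, 0.191 and 18.1 CPM in lateral-type and 69.4, 1.83 and 55.5 CPM in medial-type libraries. The part of floor plate, radial glia or dividing cells in the members' levels was not tested.

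Within the medial-type group the highest library differed between lists. The 40 members were highest in Medial, at 457.8, 777.8 and 1154 CPM in datM 1, datM 2 and Medial, and the ependymal markers that are not members were lowest in datM 2, at 230.1, 88.2 and 215.2 CPM. Floor plate markers stood at 1244, 970.4 and 549.3 CPM, radial glia markers at 4823, 2766 and 3945 CPM and proliferation markers at 520.1, 626.2 and 294.0 CPM in the same libraries. These orders rest on 3 libraries and were not tested. Dopamine neuron markers summed to 488.4, 1143 and 2924 CPM in lateral-type and 2169, 1678 and 2651 CPM in medial-type libraries, so datL 1 was the poorest in them. Nr4a2, a factor of dopamine neuron identity, was at 56.7, 99.2 and 115 CPM in lateral-type and 463, 296 and 341 CPM in medial-type libraries, without overlap.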

How the data were processed

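Ribosome-bound RNA of 6 dopamine and 2 serotonin libraries was studied as raw read counts per gene, deposited by the authors library by library. Alignment was done with STAR on mm10, per the submitters' processing notes, and counting, without strand, by featureCounts 1.4.3-p1 on GENCODE M2, per the file headers. cDNA was amplified by long-distance PCR, with 10 further cycles, and read as 100 bp single reads, per the labels' protocols; PCR copies carried no molecular identifiers, so counts of reads are not counts of molecules.

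Libraries were pooled as lateral-type, medial-type and serotonin and fitted together in edgeR 4.0.16 (R 4.3.3; quasi-likelihood, two-sided, TMM factors, default expression filter, Benjamini-Hochberg over the 13806 genes tested, threshold 0.05). SEs were derived from fold change and statistic. The common biological coefficient of variation was 1.34. Scripts were tested on simulated data. The floor for folds against 0 was 3 counts over the group. Coordinates are those of the deposited tables; Dnai1, Dnai2 and Dnaaf4 were matched under older symbols.

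The members and lists were chosen with earlier results of these data known. Values in every library were given by rule for the 4 genes chosen from the readout, the transcription factors, members whose dopamine types did not overlap or that had an unadjusted p under 0.05 in a contrast, and the 4 highest per kilobase; from other lists up to 4 genes by smallest p and defining markers. Alternatives were RLE factors, library totals, DESeq2 1.42.0, limma-voom (limma 3.58.1), other filters, a replicate block, the run as a term, subsets of libraries and leaving out each library; scaling of within-run counts, the positive-count alternatives and the summed-CPM omissions were added after seeing the data.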

Additional observations from a re-analysis of the deposited data

Results flagged for a closer look

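In 3 members the datM minus datL difference had one sign for both replicate numbers and Medial minus Lateral the opposite sign, although the labels do not say that equal numbers belong together. The mean of datM minus datL was 16.9 CPM for Dnah1, while Medial minus Lateral was -11.7 CPM (edgeR interaction, unadjusted p = 0.0543, adjusted p = 0.9999). For Dnai1 the values were -15.1 and 5.82 CPM (edgeR, unadjusted p = 0.368, adjusted p = 0.9999). For Ccdc40 they were -5.38 and 47.9 CPM (edgeR, unadjusted p = 0.367, adjusted p = 0.9999). Without the numbers the datL and datM libraries overlapped for Ccdc40, so it has no direction in the October run, whereas those of Dnah1 and Dnai1 did not overlap. For Dnah1 this rests on 1 count in datM 1 against 0 in both datL libraries, and its mean difference comes from the 812 counts of datM 2. None of the 3 interactions passed, and run, age mark and label spelling change together between these pairs, so they cannot be told apart.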

How the results depend on the processing

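Over all genes the medial over lateral test passed 1 gene, 232 with DESeq2, and 0 with limma-voom, with the run as a term, with the 6 dopamine libraries only, with datL and datM only, with a replicate block and without each library in turn (0 to 0). The 6 members with unadjusted p under 0.05 upward became 3 with a filter of 10 counts in 6 libraries, 0 with the 6 dopamine libraries only, 1 with datL and datM only and 1 to 10 without single libraries. In the fit with a replicate block they became 1, Rfx3. The libraries were not treated as paired, since the labels give only a number. Deviations from the mean of each type were correlated between libraries of 1 run with the same number. These correlations were 0.094 and 0.128 in the October run and 0.154 for Lateral with Medial, so 1 of the 3 was under 0.1. Those of other pairs were -0.091 to -0.036, among them datL 1 with Medial and Lateral with datM 1, which also share a number. This is at most a hint at pairing, from the data and not from the design. For Lateral and Medial a shared run and E18 mark cannot be told apart from pairing. The 27 positive members became 7 of 9 tested under the stricter filter, 7 of 14 tested with datL and datM only and 19 to 30 without single libraries. The 29 members above serotonin in medial-type libraries became 19 with limma-voom (where the median of all genes was -0.65, against 0.13), 8 of 9 under the stricter filter and 21 to 33 without single libraries, and the 12 in lateral-type libraries 5 of 9 and 10 to 16. The datM over datL count of 8 and the Medial over Lateral count of 24 were the same with TMM and RLE factors. The median lateral-type over serotonin log2 fold change of all genes was 0.12 with TMM factors and -0.05 with library totals.

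Single genes turned direction as follows (log2 fold changes, medial-type over lateral-type). Rfx2 reached 5.76 with the run as a term and lay between -8.94 and 7.97 without single libraries. Ttr reached -1.48 with limma-voom, -1.75 with the replicate block, -3.54 with the run as a term and lay between -7.43 and 1.43 without single libraries. The ranges without single libraries were -5.89 to 10.35 for Deup1, -8.71 to 0 for Sostdc1, -2.53 to 5.37 for Otx2, -7.43 to 11.9 for Aurkb, -3.05 to 4.33 for Fev and -7.79 to 11.31 for Tph2. The causes were not tested. With a biological coefficient of variation of 1.34 and groups of 3 and 2, the spread between libraries limited the precision.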
